A study of Mus musculus with 8 samples.

Results

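The genes that nucleate, elongate, cap and sever actin filaments were examined in RNA-seq counts of the P1 mouse cortex with and without the BAF complex subunits BAF155 and BAF170. The members were 50 genes chosen by symbol, of 48709 genes listed in every library, and all 50 were found. They were placed in 8 role groups: 10 subunits of the Arp2/3 complex, 10 nucleation promoting factors, 10 formins, 5 Ena/VASP proteins and profilins, 4 barbed end cappers, 4 tropomodulins and leiomodin, 4 severing proteins, and 3 crosslinkers and adaptors. Low counts kept Lmod1 out of the fit, so that 49 members were tested.

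Actin filaments have a fast growing barbed end and a slow pointed end. The Arp2/3 complex starts branches on existing filaments once the WAVE complex, N-WASP or cortactin activates it, whereas formins start and elongate unbranched filaments. Profilins deliver actin monomers, Ena/VASP proteins keep barbed ends growing, capping protein and tropomodulins close the barbed and pointed ends, and ADF/cofilin and gelsolin cut filaments. In migrating cortical neurons these proteins build the leading process, the growth cone and the filopodia.

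The control group held 4 libraries and the dcKO_Nex-Cre group held 4, all from whole cortex at P1 on a C57BL6/J background. The labels give only control or double knockout. According to the methods of the study, the controls were heterozygous for both floxed genes (BAF155 fl/+, BAF170 fl/+) and Cre negative. The mutants carried floxed alleles of both genes and Nex-Cre, which is active in postmitotic principal neurons, so that glia, interneurons, vessels and progenitors of the same tissue kept the genes. Nex-Cre sits in the Neurod6 locus and was present in the mutants alone. Whether each library came from a separate animal is not given, and p values therefore measure the spread between these libraries.

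Control libraries held 18737230 to 24036915 counts in total, and dcKO_Nex-Cre libraries 17958641 to 35191912. Values are given as CPM, counts scaled to a common library total with the TMM normalization of edgeR. Counts of Smarcc1, which encodes BAF155, went from 147.6 ± 11.6 to 102.2 ± 13.7 CPM (SD, n = 4 per group). Smarcc2, which encodes BAF170, went from 462.3 ± 25.9 to 263.1 ± 26.0 CPM, and both passed the edgeR test (adjusted p = 0.0348 and 0.00267). Smarcc2 passed in all 8 fits that left out a library and within lane 2, whereas Smarcc1 passed in 2 of the 8 and not within lane 2 (edgeR, adjusted p = 0.0752). The files carry a lane number in their names, which is 2 for all controls and dcKO_Nex-Cre replicates 1 and 2, and 8 for replicates 3 and 4. Mitochondrial genes took 6.87% of the counts in control replicate 2 and 6.15% in dcKO_Nex-Cre replicate 4, and 2.33% to 4.24% in the others. Replicate 4 of the mutants and control replicate 2 stood apart from their groups. Mutant replicate 4 held the lowest value of its group for 22 and the highest for 15 of the 49 members, and over all genes tested it was lowest for 37.8% and highest for 36.2%. Control replicate 2 was lowest for 20 and highest for 19 members, and for 34.8% and 36.6% of all genes. Mutant replicate 1 was highest for 18 members and lowest for 15. Without control replicate 2, no member was called, 7 were lower and 1 was higher at an unadjusted p under 0.05 in edgeR. Of all 16515 genes tested in that fit, 982 were lower and 1077 higher at that p, and 54 and 33 passed the adjusted test. Members that crossed an adjusted or unadjusted p of 0.05 when mutant replicate 4 was left out are given with and without it.

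Members of every role group were detected, but their levels spanned more than 3 orders of magnitude. Per kb of exon, the highest control level was that of Cfl1, the main cofilin, at 319.8 CPM per kb. It was followed by Dstn, or ADF, at 229 and by the neuronal profilin Pfn2 at 210.2 CPM per kb. The highest member of the Arp2/3 complex was Arpc5 with 142.7 CPM per kb, and the lowest was Arpc1b with 2.49, against 86.2 for its paralogue Arpc1a. Among the nucleation promoting factors the range ran from Wasf2 at 3.95 to Nckap1, the WAVE complex scaffold, at 92.2 CPM per kb. Formins were lower, from Fmn1 at 0.15 to Daam1 at 33.1 CPM per kb. The filopodial bundler Fscn1 reached 118.3 CPM per kb. Lmod1, at 0.13, and Tmod1, at 0.26 CPM per kb, were also low, while the neuronal paralogue Tmod2 stood at 39.8.

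**Figure D1:**
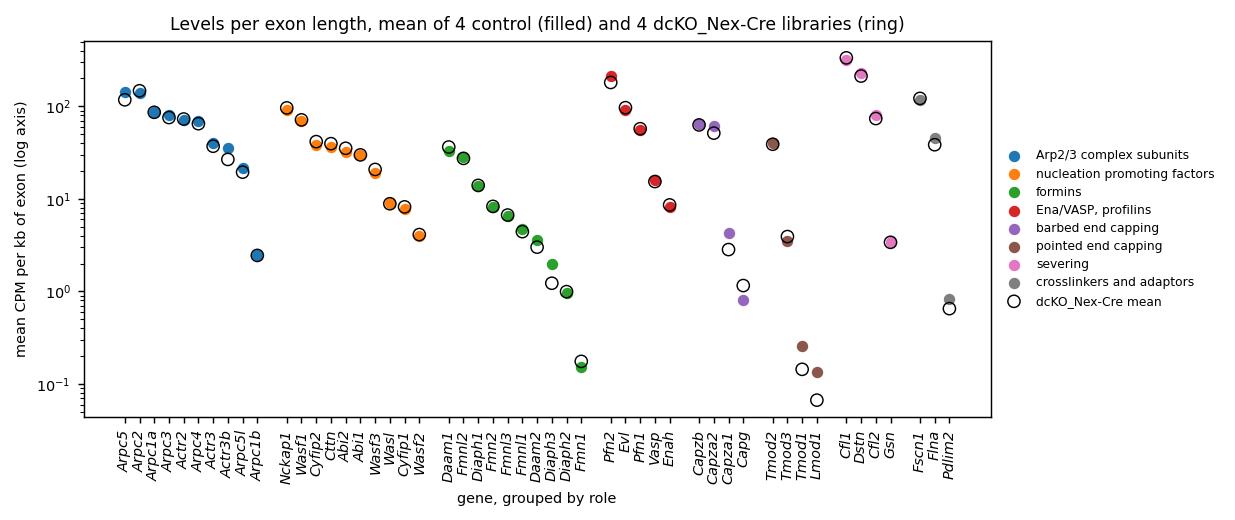
Mean CPM per kb of exon on a log axis for all 50 members, grouped by role, with filled points for the mean of 4 control libraries and rings for the mean of 4 dcKO_Nex-Cre libraries. Cfl1 stands highest at 319.8 and Lmod1 lowest at 0.13 CPM per kb in the control, and most rings lie on their points.

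The comparison of dcKO_Nex-Cre with control asks whether loss of BAF155 and BAF170 in postmitotic neurons changed expression of these genes. Diaph3, a formin that elongates unbranched filaments, fell to 62.3% of its control level. It was the only member that passed an adjusted p of 0.05 in edgeR, and no member rose. Over all 16287 genes tested, 0.884% passed in either direction. At an unadjusted p under 0.05 in edgeR, 8 of the 49 members were lower (Diaph3, Actr3b, Capza1, Pfn2, Tmod1, Arpc5, Capza2 and Pdlim2), against 7.05% of all genes. Capg alone was higher at that p, against 6.59% of all genes. Log2 fold changes were below 0 for 24 members and above 0 for 25. Their median was 0.01, and that of all genes tested was 0.00.

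Of the 8 lower members, Capza1, Actr3b, Tmod1, Pdlim2 and Arpc5 had been picked by the study from these same libraries for their reduced expression, and their direction is not independent evidence. Without those 5 genes, 44 members were tested. Of these, 3 were lower (Diaph3, Pfn2 and Capza2) at an unadjusted p under 0.05 in edgeR, against 7.05% of all genes. At that p 1 was higher (Capg), against 6.59% of all genes. The median log2 fold change of the 44 was 0.03. All 5 genes left out were lower, so that their removal could only reduce the count of lower members and could not lower the median. For 4 members, namely Diaph3, Actr3b, Pfn2 and Pdlim2, the 4 mutant libraries were all lower than the 4 controls, which held for 4.01% of all genes. Actr3b and Pdlim2 were picked by the study, and of the 44 members not picked, 2 were separated in that way (Diaph3 and Pfn2). Capg was the only member with all mutant libraries higher than all controls, which held for 3.99% of all genes.

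**Figure D2:**
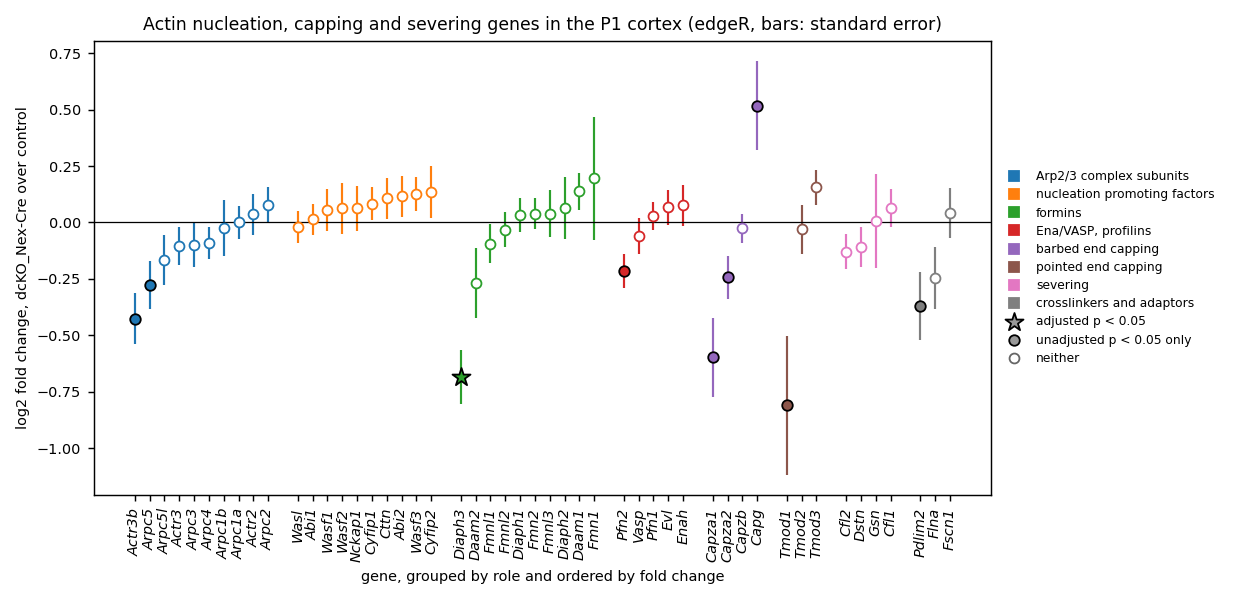
Log2 fold change, dcKO_Nex-Cre over control, with its standard error from edgeR for the 49 members tested, grouped by role. The star marks Diaph3, which passed the adjusted test at -0.69, filled points mark the 8 others with an unadjusted p under 0.05, and open points mark the rest.

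The role groups leaned in different directions, which is given as a description without a test of the difference. Of all 16287 genes tested, 8004 were below 0 and 8283 above 0. At an unadjusted p under 0.05 in edgeR, 7.05% of all genes were lower and 6.59% higher. In the Arp2/3 complex 8 of 10 subunits were below 0 and the median log2 fold change was -0.09, with 2 lower at an unadjusted p under 0.05 in edgeR. In the nucleation promoting factors 9 of 10 were above 0, with a median of 0.07. None of the 10 reached an unadjusted p under 0.05 in edgeR. Without dcKO_Nex-Cre replicate 4, 3 of them were higher at that p, against 14.3% of all genes in that fit. Formins had 4 below and 6 above 0, with a median of 0.04. Barbed end cappers had 3 below and 1 above 0, severing proteins had 2 below and 2 above, and their medians were -0.13 and -0.05.

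Promoter sequences were taken from the RefSeq table for GRCm38.p6, with 250 bases before and 50 bases after the listed start, in the direction of the gene. The table held 41 of the 50 members. The promoter of Diaph3 is printed because it is the member that passed the test, and those of Pfn2, Capza2 and Arpc5 as 3 examples of the other lower members, chosen after their values were seen. Capitals mark the letters CCAAT (the CCAAT box) and GGGCGG (the GC box), on either strand; the matches do not overlap each other.
Diaph3 (chr14:87141175-87141474, minus strand): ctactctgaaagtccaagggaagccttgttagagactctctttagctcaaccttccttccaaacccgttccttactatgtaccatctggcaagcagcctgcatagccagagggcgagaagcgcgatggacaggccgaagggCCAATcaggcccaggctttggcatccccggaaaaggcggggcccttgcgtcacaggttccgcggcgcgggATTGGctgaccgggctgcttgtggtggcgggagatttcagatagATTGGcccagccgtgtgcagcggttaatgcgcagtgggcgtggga
Pfn2 (chr3:57847708-57848007, minus strand): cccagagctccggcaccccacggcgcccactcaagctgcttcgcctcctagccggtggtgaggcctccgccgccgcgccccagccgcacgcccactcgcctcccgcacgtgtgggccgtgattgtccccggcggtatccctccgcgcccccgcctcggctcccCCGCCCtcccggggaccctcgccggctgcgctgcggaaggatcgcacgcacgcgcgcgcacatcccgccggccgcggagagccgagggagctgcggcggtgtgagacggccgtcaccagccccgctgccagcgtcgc
Capza2 (chr6:17636760-17637059, plus strand): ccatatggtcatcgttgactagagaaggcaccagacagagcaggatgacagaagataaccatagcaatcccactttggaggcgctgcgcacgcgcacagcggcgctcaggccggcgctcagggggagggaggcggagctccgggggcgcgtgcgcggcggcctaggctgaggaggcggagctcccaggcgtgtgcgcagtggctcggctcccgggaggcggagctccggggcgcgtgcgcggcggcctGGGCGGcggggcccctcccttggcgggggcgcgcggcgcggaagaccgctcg
Arpc5 (chr1:152766292-152766591, plus strand): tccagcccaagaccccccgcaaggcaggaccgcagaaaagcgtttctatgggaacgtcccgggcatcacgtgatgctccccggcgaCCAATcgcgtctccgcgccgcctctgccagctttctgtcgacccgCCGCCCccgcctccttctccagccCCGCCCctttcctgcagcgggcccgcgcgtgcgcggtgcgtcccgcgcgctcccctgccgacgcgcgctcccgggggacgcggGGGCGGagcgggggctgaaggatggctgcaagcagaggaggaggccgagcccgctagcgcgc

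The Diaph3 promoter held 3 CCAAT boxes, which began 109 and 39 bases before and at base 6 after the start, and no GGGCGG. Pfn2 and Capza2 held 1 GGGCGG each and no CCAAT, and Arpc5 held 1 CCAAT and 3 GGGCGG. These windows were rich in G and C, with 59.3% in Diaph3 and 73.0% to 77.7% in the other 3, beside a median of 52.7% over all 27025 promoters. CCAAT was found in 34.1% of the members' promoters and in 37.9% of all promoters, and GGGCGG in 78.0% and 35.9%. All promoters were not matched to the members for G and C content or for expression. The difference in GGGCGG therefore cannot be read as particular to actin genes. Searches of both strands for TTTGAA and CAGATG, which are not in capitals, gave 14.6% and 7.32% of the members beside 18.1% and 17.2% of all promoters, and the CArG box gave 2.44% beside 1.57%. TTTGAA and the CArG box were in none of the 4 printed windows.

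Among the formins, Diaph3 (ENSMUSG00000022021, GRCm38 chromosome 14, 86655367 to 87141235, minus strand) measured 11.8, 10.95, 11.6 and 9.60 CPM in the controls and 6, 7.01, 7.43 and 6.90 CPM in the dcKO_Nex-Cre libraries. All mutant libraries lay below all controls. The log2 fold change was -0.69 ± 0.12 (standard error; edgeR, adjusted p = 0.0288). The exact permutation test of CPM gave p = 0.0286, the smallest that 4 against 4 libraries can give. Within lane 2 the log2 fold change was -0.76 (edgeR, adjusted p = 0.0439), with 0.643% of all genes passing as lower there. With each library left out in turn it stayed between -0.75 and -0.62, but it passed in 1 of the 8 fits, that without dcKO_Nex-Cre replicate 4, and the adjusted p of edgeR ranged from 0.0171 to 0.138. Since Diaph3 is also used by dividing cells in cytokinesis, markers of cycling cells were set beside it. Their summed level was 306.5 to 363.6 CPM in the control and 308.3 to 469.5 CPM in the mutant. Over all libraries, 10 of the 12 markers were above 0, none reached an adjusted or unadjusted p under 0.05 in edgeR, and none was at 0 counts throughout. Without dcKO_Nex-Cre replicate 4, Mki67 was at 0.55 and Aurkb at 0.35 (edgeR, unadjusted p = 0.00513 and 0.0481, adjusted p = 0.0568 and 0.174). In that fit Cdk1, Birc5 and Pcna were below 0. The part of cycling cells in the value of Diaph3 was not tested.

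The other 9 formins gave no call. Diaph1, the most abundant of the Diaphanous formins, measured 86.8 ± 3.72 and 88.8 ± 7.49 CPM (SD, n = 4 per group), and Diaph2 measured 11.1 ± 0.76 and 11.5 ± 2.04 CPM. Daam2 had a log2 fold change of -0.27 ± 0.16 and Daam1 one of 0.14 ± 0.08. Fmn2, the formin of neuronal growth cones, was at 64.4 ± 1.77 and 66.1 ± 3.53 CPM. Fmn1 was the formin with the highest log2 fold change, 0.20 ± 0.27, on 57.6 mean counts, but this rested on dcKO_Nex-Cre replicate 4 at 4.15 CPM. Without that library the log2 fold change of Fmn1 was -0.06, and within lane 2 it was -0.26.

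Among the Arp2/3 subunits, Actr3b, a brain-enriched paralogue of the core subunit Actr3, measured 87.9, 71.6, 86.7 and 101.7 CPM in the controls and 69.2, 54.0, 69.5 and 66.4 CPM in the mutants. The groups did not overlap, with control replicate 2 the nearest to the mutants. Its log2 fold change of -0.43 ± 0.11 did not pass in edgeR (adjusted p = 0.133), whereas it did in DESeq2 (adjusted p = 0.0331), where 1.78% of all genes passed as lower. Actr3 itself was at 184.7 ± 11.3 and 171.8 ± 16.0 CPM.

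Arpc5, a subunit of which the paralogue Arpc5l can take the place, measured 327.9, 324.2, 323.0 and 324.2 CPM in the controls. In the mutants it measured 228.0, 249.5, 265.3 and 329.1 CPM. Mutant replicates 1 to 3 lay below every control and replicate 4 above every control, so that the groups overlapped. The log2 fold change was -0.28 ± 0.11 over all libraries (edgeR, adjusted p = 0.284). It was -0.44 within lane 2 (edgeR, adjusted p = 0.0404) and -0.39 without replicate 4 (edgeR, adjusted p = 0.0171).

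Arpc5l was likewise highest in mutant replicate 4, with 80.2, 78.4 and 82.6 CPM in replicates 1 to 3 and 108.8 CPM in replicate 4, beside 93.5 to 110.8 CPM in the controls. Its log2 fold change was -0.17 ± 0.11 (edgeR, adjusted p = 0.523), and -0.28 without replicate 4 (edgeR, adjusted p = 0.0458). The remaining subunits Actr2, Arpc1a, Arpc1b, Arpc2, Arpc3 and Arpc4 had log2 fold changes between -0.10 and 0.08. Without dcKO_Nex-Cre replicate 4, Arpc3 was at -0.20, Arpc4 at -0.14 and Actr3 at -0.16 (edgeR, unadjusted p = 0.0170, 0.0386 and 0.0444, adjusted p = 0.101, 0.155 and 0.167). Arpc1b shares 18.2% of its exon bases with Pdap1 on the opposite strand, which had 3523 mean counts against its 299.1, and without strand their reads cannot be told apart.

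The nucleation promoting factors gave no call in either direction. The WAVE complex genes were Wasf1 to Wasf3, Cyfip1, Cyfip2, Nckap1, Abi1 and Abi2, and their log2 fold changes lay between 0.01 and 0.14. Cyfip2 had the highest of these, 0.14 ± 0.11, with 269.0 ± 7.50 and 295.5 ± 51.7 CPM. Without dcKO_Nex-Cre replicate 4 it was 0.24, with 0.18 for Abi2 and 0.18 for Cttn (edgeR, unadjusted p = 0.0163, 0.0446 and 0.0424, adjusted p = 0.0994, 0.167 and 0.162). Wasf3 was at 99.3 ± 2.90 and 108.2 ± 9.37 CPM (edgeR, adjusted p = 0.484). Wasl, which encodes N-WASP, had a log2 fold change of -0.02 ± 0.07, and the branch stabilizer Cttn one of 0.11 ± 0.09.

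Pfn2, the profilin most abundant in neurons, measured 750.5, 770.7, 721.4 and 735.2 CPM in the controls and 603.9, 616.0, 655.4 and 690.6 CPM in the mutants. All mutant libraries were below all controls. The log2 fold change was -0.21 ± 0.08 (edgeR, adjusted p = 0.249), or -0.25 without dcKO_Nex-Cre replicate 4 (edgeR, adjusted p = 0.0561). The ubiquitous Pfn1 was at 135.2 ± 2.71 and 137.9 ± 4.13 CPM. The Ena/VASP genes Enah, Evl and Vasp, whose products act at the tips of filopodia, had log2 fold changes of 0.08 ± 0.09, 0.07 ± 0.08 and -0.06 ± 0.08.

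**Figure D3:**
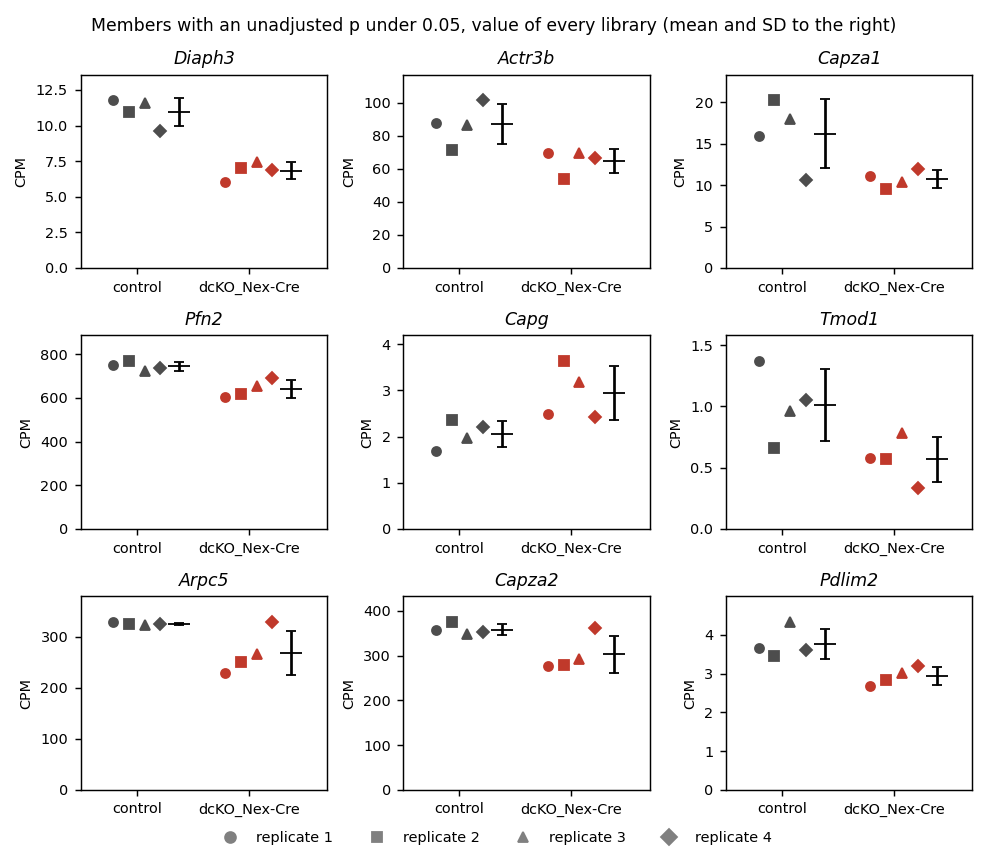
CPM of each library, on linear axes from 0, for the 9 members with an unadjusted p under 0.05 in edgeR, ordered by p, with grey control and red dcKO_Nex-Cre symbols and the mean and SD of 4 libraries beside them. The groups do not overlap for Diaph3, Actr3b, Pfn2, Capg and Pdlim2, and dcKO_Nex-Cre replicate 4 lies among or above the controls for Arpc5, at 329.1 CPM, and Capza2, at 362.4 CPM.

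Capping protein is a dimer of an alpha subunit, from Capza1 or Capza2, and the beta subunit from Capzb. Capza2 measured 356.3, 375.8, 347.7 and 351.9 CPM in the controls and 277.0, 278.0, 293.2 and 362.4 CPM in the mutants. As with Arpc5, mutant replicates 1 to 3 lay below every control. For Capza2, mutant replicate 4 lay among the controls. Capza2 had a log2 fold change of -0.24 ± 0.10 (edgeR, adjusted p = 0.298), and -0.34 without replicate 4 (edgeR, adjusted p = 0.0211). Capzb differed little, with 211.5 ± 6.53 and 207.8 ± 1.85 CPM.

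Capza1 measured 15.9, 20.3, 18.0 and 10.7 CPM in the controls and 11.1, 9.54, 10.3 and 11.96 CPM in the mutants. Control replicate 4 lay among the mutants and the other controls above them. Its log2 fold change of -0.60 ± 0.18 did not pass in edgeR (adjusted p = 0.169), whereas it did in DESeq2 (adjusted p = 0.0436). The annotation holds a pseudogene, Gm3608 (GRCm38 chromosome 1, 105455971 to 105458829), that matches Capza1 over 2859 bases at 99.6% identity, so that the split of reads between them is uncertain. Gm3608 had 3.25, 0.77, 0.71 and 4.36 CPM in the controls and 4.17, 3.91, 4.42 and 4.83 CPM in the mutants.

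The share of Gm3608 in the summed counts of both was 16.95%, 3.64%, 3.79% and 29.0% in the controls and 27.3% to 29.97% in the mutants. Control replicates 2 and 3, with the lowest share, were those with the highest Capza1. The sum was 18.5 ± 2.53 CPM in the control and 15.1 ± 1.38 CPM in the mutant (SD, n = 4 per group; exact permutation test, p = 0.0857). With the counts of both genes summed, an alternative chosen after the data were seen, the log2 fold change was -0.30 ± 0.12 (edgeR, adjusted p = 0.302). Capza1 also shares 166 exon bases with St7l on the opposite strand.

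**Figure D4:**
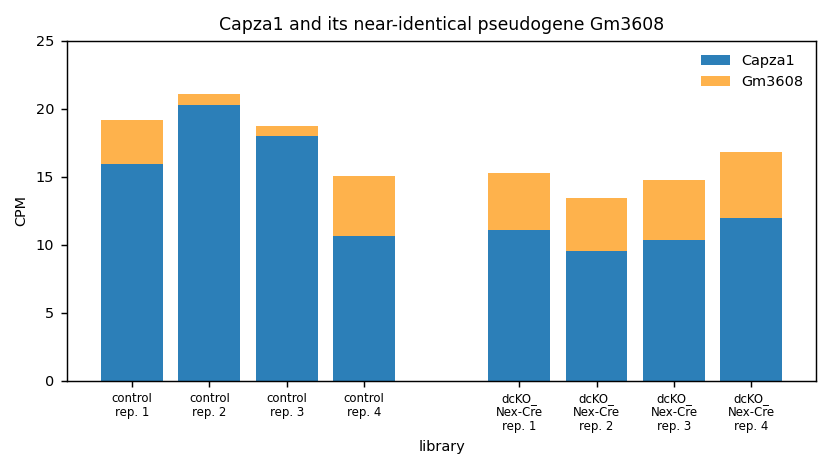
CPM of Capza1 (blue) and of the near-identical pseudogene Gm3608 (orange) stacked for each of the 8 libraries. Gm3608 takes 3.64% and 3.79% of the sum in control replicates 2 and 3 and 27.3% to 29.97% in the 4 dcKO_Nex-Cre libraries.

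Capg, a barbed end capper of the gelsolin family that is abundant in macrophages, measured 1.69, 2.35, 1.96 and 2.20 CPM in the controls and 2.49, 3.64, 3.18 and 2.41 CPM in the mutants. The groups did not overlap, although mutant replicate 4 and control replicate 2 were close. Capg had a log2 fold change of 0.52 ± 0.20 (edgeR, adjusted p = 0.281). The summed level of 10 microglia and macrophage markers was 159.5 to 186.8 CPM in the control and 176.2 to 219.0 CPM in the mutant. Of these, 7 were above and 3 below 0, 1 passed as higher at an adjusted p of 0.05 in edgeR, and none was at 0 counts throughout. Their part in the value of Capg was not tested. In whole tissue, fewer cells of a type and less RNA per cell cannot be told apart.

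At the pointed end, Tmod1 measured 1.37, 0.66, 0.96 and 1.06 CPM in the controls and 0.58, 0.57, 0.78 and 0.34 CPM in the mutants. Mutant replicate 3 lay above control replicate 2, and the rest of the mutants below all controls. Tmod1 had a log2 fold change of -0.81 ± 0.31 on 18.6 mean counts (edgeR, adjusted p = 0.283). Without mutant replicate 4 it was -0.66, with an unadjusted p of 0.0521 in edgeR. Tmod1 shares 32.6% of its exon bases with Tstd2 on the opposite strand, which had 550.6 mean counts, and its reads are uncertain for that reason. Tmod1 is also a gene of red blood cells, whose 6 markers summed to 82.7 to 137.9 CPM in the control and 82.1 to 185.5 CPM in the mutant.

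The other tropomodulins gave no call. Tmod2 was at 464.9 ± 16.1 and 455.0 ± 71.6 CPM and Tmod3 at 39.2 ± 3.08 and 43.7 ± 1.82 CPM. Lmod1, a leiomodin of smooth muscle, had 9.38 mean counts and was not tested. It measured 0.37, 0.55, 0.50 and 0.70 CPM in the controls and 0.38, 0.31, 0.21 and 0.17 CPM in the mutants. The summed level of 7 smooth muscle and pericyte markers was 148.4 to 200.3 CPM in the control and 136.6 to 157.6 CPM in the mutant. Of that sum, Rgs5 alone was at 133.6 ± 16.8 and 100.6 ± 11.9 CPM (edgeR, unadjusted p = 0.00288, adjusted p = 0.127). Acta2 was at 2.10 ± 0.28 and 1.77 ± 0.26 CPM, and Tagln at 3.42 ± 0.30 and 3.13 ± 0.39 CPM. Of the 6 markers tested, 4 were below and 2 above 0. Their part in the value of Lmod1 was not tested.

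None of the severing genes passed. Cfl1 was at 909.6 ± 55.6 and 950.4 ± 66.3 CPM, and Cfl2 at 263.8 ± 8.41 and 241.2 ± 19.4 CPM. Dstn had a log2 fold change of -0.11 ± 0.09. Without dcKO_Nex-Cre replicate 4 the values were -0.19 for Dstn and -0.18 for Cfl2 (edgeR, unadjusted p = 0.0180 and 0.0260, adjusted p = 0.104 and 0.126). Gsn, which encodes gelsolin, was at 10.7 ± 2.47 and 10.7 ± 2.99 CPM. Its highest values, 12, 13.4 and 14.95 CPM, were in control replicates 1 and 4 and dcKO_Nex-Cre replicate 2. In the same 3 libraries the 5 choroid plexus markers summed to 733.8, 1328 and 552.1 CPM, and in the others to 3.65 to 92.4 CPM. The part of choroid plexus in the Gsn values was not tested.

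Of the crosslinkers and adaptors, Pdlim2, which links the cytoskeleton to signaling proteins, measured 3.66, 3.45, 4.34 and 3.61 CPM in the controls and 2.67, 2.84, 3.01 and 3.20 CPM in the mutants. The groups did not overlap. Pdlim2 had a log2 fold change of -0.37 ± 0.15 (edgeR, adjusted p = 0.309). Flna, the X-linked filamin needed for neuronal migration, measured 404.1, 487.7, 389.5 and 434.1 CPM in the controls and 289.6, 349.1, 340.2 and 468.4 CPM in the mutants. Mutant replicates 1 to 3 lay below every control and replicate 4 among them. The log2 fold change was -0.25 ± 0.14 (edgeR, adjusted p = 0.449), and -0.39 without replicate 4 (edgeR, adjusted p = 0.0398). Fscn1 was at 356.4 ± 17.5 and 367.1 ± 58.8 CPM.

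When dcKO_Nex-Cre replicate 4 was left out, 5 members were lower at an adjusted p of 0.05 in edgeR (Diaph3, Arpc5, Capza2, Flna and Arpc5l), and 3.74% of all genes passed as lower in that fit. At an unadjusted p under 0.05, 14 of 50 members were then lower, against 13.9% of all genes, and 4 were higher (Cyfip2, Abi2, Cttn and Capg), against 14.3%. The median log2 fold change of the members was -0.01 in that fit.

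To ask whether close relatives changed unequally, the log2 ratio of 2 paralogues was taken within each library for 12 pairs, which removes the effect of normalization. For Diaph3 over Diaph1 the ratio was -2.82, -3.06, -2.93 and -3.12 in the controls and -4.04, -3.65, -3.56 and -3.54 in the mutants. All mutant ratios lay below all control ratios, with a difference of -0.71 (exact permutation test, two-sided, p = 0.0286, adjusted p over the 12 pairs = 0.171). For Pfn2 over Pfn1 the ratio was 2.45, 2.53, 2.45 and 2.42 in the controls and 2.17, 2.16, 2.19 and 2.34 in the mutants. These did not overlap either, with a difference of -0.24 (exact permutation test, p = 0.0286, adjusted p = 0.171). The other 10 pairs overlapped. Among them, Actr3b over Actr3 differed by -0.31 and Tmod1 over Tmod2 by -0.78 (exact permutation test, p = 0.0571 each, adjusted p = 0.171 each). No pair passed an adjusted p of 0.05, and with 70 regroupings and 12 pairs a pair can reach it only where several have the smallest p.

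**Figure D5:**
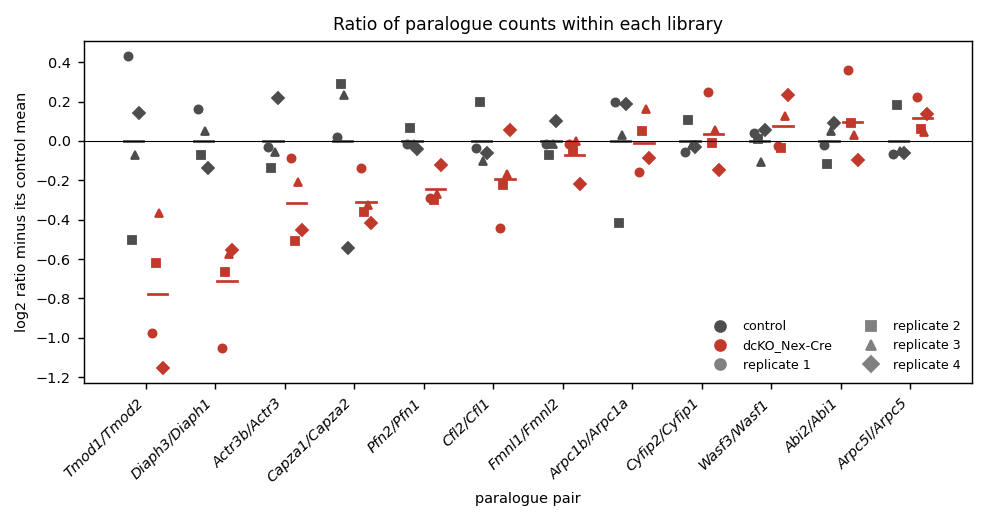
Log2 ratio of the counts of 2 paralogues in each library, minus the mean ratio of the 4 controls, for 12 pairs, with control in grey, dcKO_Nex-Cre in red and group means as lines. The mutant libraries lie below all controls for Diaph3 over Diaph1, with a mean difference of -0.71, and for Pfn2 over Pfn1, with -0.24.

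Other genes of the actin cytoskeleton were listed as a comparison, and 89 of 96 were tested. At an adjusted p of 0.05 in edgeR 1 was lower and none was higher, against 0.884% of all genes in either direction. At an unadjusted p under 0.05, 8 were lower and 5 higher, against 7.05% and 6.59% of all genes. The median log2 fold change was 0.00. The gene that passed was Baiap2, which encodes IRSp53, a membrane-bending partner of WAVE and Ena/VASP proteins. It went from 59.6 ± 2.07 to 41.9 ± 5.33 CPM (SD, n = 4 per group; log2 fold change -0.51 ± 0.09, edgeR, adjusted p = 0.0339). It passed in 2 of the 8 fits that left out a library, and not within lane 2 (log2 fold change -0.39, edgeR, adjusted p = 0.0653). Actin monomer sequestering Tmsb10 and the cofilin kinase Limk1 had log2 fold changes of -0.41 ± 0.12 and -0.22 ± 0.07 (edgeR, adjusted p = 0.166 and 0.198). Of the 5 higher genes, the 3 with the smallest unadjusted p were Svil, a gelsolin relative, Jmy, a nucleator, and Carmil1, which removes capping protein from barbed ends. Their log2 fold changes were 0.41 ± 0.12, 0.33 ± 0.10 and 0.25 ± 0.08 (edgeR, adjusted p = 0.166, 0.190 and 0.226).

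The tissue label was checked against marker genes. All 10 cortical projection neuron markers were detected, with a summed level of 1789 to 2049 CPM in the control and 1544 to 1753 CPM in the mutant. Without Neurod6, the locus of the Cre allele, the sums were 1204 to 1298 and 1138 to 1342 CPM and overlapped. Of the 10 markers, 7 were below and 3 above 0. Besides Neurod6, Fezf2 and Slc17a7 had log2 fold changes of -0.55 and -0.54 (edgeR, unadjusted p = 0.00439 and 0.0222, adjusted p = 0.149 and 0.280). The 5 markers of oligodendrocyte precursors summed to 172.7 to 252.0 CPM in the control and 252.1 to 307.8 CPM in the mutant. The part of these differences in the values of the actin genes was not tested.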

How the data were processed

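RNA was isolated from whole P1 cortex and libraries were made with a TruSeq RNA kit, which does not mark strand. The authors deposited 1 table of read counts by Ensembl gene for each of the 8 libraries, as whole numbers that were not normalized. The submitters' processing notes name mm10; the aligner and the counting program are not given in the sources used here. Of 48709 genes, 48349 matched GENCODE M21 on GRCm38, the same build. Groups came from the sample labels and the Cre line from the study.

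The groups were compared with edgeR 4.0.16 under R 4.3.3 (filterByExpr, TMM, robust quasi-likelihood F test, two-sided, no covariates), and p values were adjusted by Benjamini-Hochberg over all 16287 genes that entered the fit, and called under 0.05. The scripts were tested on simulated counts. Single values and paralogue log2 ratios (0.5 counts added) were compared by exact permutation over 70 regroupings. Alternatives were DESeq2 1.42.0 size factors and Wald test, limma-voom (limma 3.58.1), no filter, at least 10 counts in every library, the replicate number as a block, lane 2 alone, each library left out, 5 counts added to ratios, and Capza1 and Gm3608 summed. Similar genes were those matching at 98% identity or more over at least 100 bases. All members are accounted for. Named with every library are members with an adjusted or unadjusted p under 0.05, those the study picked, and Lmod1; the values of Flna and Arpc5l were added after the fit without dcKO_Nex-Cre replicate 4 was seen. From the other actin lists, genes with an adjusted p under 0.05 and at most 3 a direction with the smallest unadjusted p are named. The members and lists were chosen with earlier results of these data known. No libraries were copies of each other, and the biological coefficient of variation was 0.143. Other mutants of the study were not analysed here.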

Additional observations from a re-analysis of the deposited data

Results flagged for a closer look

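Among 42 groups of 4 values examined (9 members with an unadjusted p under 0.05 and 12 paralogue ratios, in each group), 2 held a library far from the other 3, and chance flags about 1 in 20 such groups, or 2.1. The log2 ratio of Arpc5l to Arpc5 was -1.55 in control replicate 2, while the other controls lay between -1.80 and -1.78. The log2 ratio of Pfn2 to Pfn1 was 2.34 in dcKO_Nex-Cre replicate 4, while the other mutants lay between 2.16 and 2.19.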

How the results depend on the processing

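At an adjusted p of 0.05, 1 member passed in the main comparison, 3 with DESeq2 (Diaph3, Actr3b and Capza1), 2 within lane 2 (Arpc5 and Diaph3), 0 with the replicate block and 0 to 5 when each library was left out. Over all genes, 83 were lower and 61 higher at that threshold in the main comparison, and 279 and 215 with DESeq2. The same counts were 108 and 140 within lane 2 and 33 and 21 with the replicate block. With a library left out they were 9 to 619 and 9 to 659. Members lower at an unadjusted p under 0.05 numbered 8, beside 15 within lane 2 and 4 to 14 with a library left out, and members higher numbered 1, beside 2 and 0 to 4. At that p, 1149 of all 16287 genes were lower in the main comparison and 1980 of 16792 within lane 2. With a library left out, 822 to 2296 of all genes were lower. The higher genes numbered 1073, 1966 and 728 to 2364 in the same order. Of the fits that left out a library, that without dcKO_Nex-Cre replicate 4 gave the highest of each count of members, 5, 14 and 4. The lowest count of lower members, 4, came without control replicate 1, and 5 came without dcKO_Nex-Cre replicate 2. The cause was not tested. The DESeq2 size factors, voom, both filters and the summed Capza1 and Gm3608 counts kept the counts of members within 1.5 times. The log2 fold change of Diaph3 was negative under every alternative run. With the replicate block, 8 members were lower and 1 higher at an unadjusted p under 0.05, beside 1066 and 907 of all 16287 genes. In that fit Diaph3 had a log2 fold change of -0.69 (edgeR, adjusted p = 0.0989). No pairing by replicate number was seen. The correlations of the deviations of same-numbered libraries were 0.126, 0.0179, 0.135 and -0.138, beside -0.292 to 0.371 for libraries of different number. These values cannot settle whether libraries were paired in the experiment. Tmod1, Lmod1 and Capg had few counts, and differences in them smaller than their spread were not detectable at this depth.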
